A study of Mus musculus with 6 samples.

Results

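The 9 genes described here take part in the supply of fatty acids to heart muscle or in their storage: Cd36, Lpl, Slc27a1, Vldlr, Fabp3, Fabp4, Gpihbp1, Angptl4 and Dgat2. They were taken from the array by name, as the 24 probe sets whose only annotated symbol is 1 of these 9, out of 45101 probe sets on the array and 18193 genes with a symbol of their own. A probe set is a group of short probes read together, and its value here is a log2 signal, so a difference of 1 means a doubling. The samples were 6 hearts of male mice aged 6 to 7 weeks, with RNA from the apex and 1 Affymetrix array per heart, and no pooling of animals. Every mouse had the genotype Fog2flox/delta, that is 1 floxed and 1 deleted allele of Fog2 (official symbol Zfpm2), which binds GATA transcription factors as a cofactor. In 3 hearts (aMHC_Cre 1 to 3) an alpha MHC Cre transgene was present, whose promoter is active in cardiomyocytes and not in the vessels, fibroblasts or fat of the same tissue. The other 3 hearts (no_Cre 1 to 3) lacked Cre and, since they carried the deleted allele, were not wild type. A Cre control lacking floxed Fog2 is not among these samples, so what Cre itself does cannot be told apart from what the loss of Fog2 does.

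As background, the heart burns mainly fatty acids, which reach it bound to albumin or as triglyceride inside lipoproteins. Lipoprotein lipase, made by cardiomyocytes, is carried by Gpihbp1 to the inner face of the capillary, where it splits triglyceride, while Angptl4 inhibits it and the VLDL receptor binds triglyceride-rich particles. Cd36 and the transport protein Slc27a1 take up the freed fatty acids, Fabp4 in endothelium and Fabp3 in muscle carry them in the cytosol, and Dgat2 esterifies them to triglyceride for storage in lipid droplets.

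In hearts with Cre, the signals of Vldlr, Dgat2 and Slc27a1 fell, and no member rose. Each of the 6 Vldlr probe sets fell, by 0.77 to 1.35 on the log2 scale, which left 39.3% to 58.6% of the signal without Cre. Both Dgat2 probe sets fell by about the same amount, to 50.6% and 50.1%, and 1 of 2 for Slc27a1 and 1 of 3 for Cd36 passed the test as well. Lpl, Fabp3, Fabp4, Gpihbp1 and Angptl4 did not pass at any probe set. Counted over probe sets, 23 of the 24 passed a filter on dim signals, and 10 of these were lower and 0 higher (limma, Benjamini-Hochberg adjusted p under 0.05), where 1.79% of all 27022 tested probe sets were lower and 5.23% were called in either direction. Counted as genes through the brightest probe set of each, 3 of 9 were lower. Of 13062 tested genes, 2.04% were lower and 6.24% were called in either direction. Members and the gene lists below were chosen with earlier results of these data known, so these counts are not independent support. The median difference was -0.51 over the 23 probe sets, of which Vldlr gave 6, and -0.02 over all tested probe sets. Over the 9 member genes it was -0.20, against -0.01 over all tested genes.

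The arrays were alike in scale, with medians of 5.76 to 5.78 with Cre and 5.72 to 5.81 without Cre, and maxima of 13.97 to 14.00. Taken over probe sets, which do not act as replicates, arrays correlated at 0.980 to 0.987 within groups and 0.964 to 0.973 between groups. The cardiomyocyte markers fixed for this tissue were bright (14 of 14 tested). Of these, 0 passed the test, where 6.24% of all tested genes did. Of the targeted gene, Zfpm2, the dimmer probe set read 5.46 to 5.65 with Cre and 6.34 to 6.65 without Cre, and the brighter one 10.48 to 10.71 with Cre and 8.83 to 8.95 without Cre. The differences were -0.88 (limma adjusted p 0.0052) for the dimmer and 1.68 (0.00014) for the brighter. Without the filter the limma adjusted p was 0.068 and 0.014 in the same order. The exons that they measure are not known here, so whether either checks the deletion cannot be told. The titles call the hearts biological replicates.

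The promoter windows of Vldlr and Cd36 are shown because Vldlr fell at every probe set, because Cd36 differed by different amounts at its probe sets, and because these windows, from RefSeq on GRCm38.p6, hold the only matches to the motifs searched. They run from 250 bases before to 50 after an annotated start site, 5′ to 3′ on the gene's strand, with matches in capitals. The first Vldlr window is chr19:27216234-27216533 on the plus strand, the second is chr19:27216770-27217069 on the plus strand, and the Cd36 window is chr5:17835847-17836146 on the minus strand.
Vldlr, first start: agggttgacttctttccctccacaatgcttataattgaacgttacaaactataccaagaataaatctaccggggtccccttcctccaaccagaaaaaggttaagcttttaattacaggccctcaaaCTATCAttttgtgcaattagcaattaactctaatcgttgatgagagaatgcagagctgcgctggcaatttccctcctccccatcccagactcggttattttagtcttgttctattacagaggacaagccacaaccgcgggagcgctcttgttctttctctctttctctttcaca
Vldlr, second start: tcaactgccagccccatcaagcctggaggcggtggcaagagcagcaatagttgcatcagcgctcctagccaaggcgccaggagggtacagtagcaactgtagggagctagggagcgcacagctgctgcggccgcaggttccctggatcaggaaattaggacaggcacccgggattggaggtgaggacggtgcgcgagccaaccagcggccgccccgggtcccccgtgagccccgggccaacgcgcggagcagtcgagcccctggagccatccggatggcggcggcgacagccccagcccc
Cd36: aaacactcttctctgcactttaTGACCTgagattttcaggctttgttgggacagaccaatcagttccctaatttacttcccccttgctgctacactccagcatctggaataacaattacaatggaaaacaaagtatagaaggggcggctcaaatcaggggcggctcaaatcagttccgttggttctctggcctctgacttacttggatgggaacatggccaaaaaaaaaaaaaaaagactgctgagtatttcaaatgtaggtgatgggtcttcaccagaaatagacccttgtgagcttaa

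The searches, on both strands, were for GATA sites (AGATAA or AGATAG, and TGATAA or TGATAG), since Fog2 binds GATA factors, and for AGGTCA, the hexamer bound by nuclear receptors such as the PPARs, alone or as the direct repeat AGGTCANAGGTCA. The first Vldlr window holds 1 GATA site, TGATAG on the opposite strand, beginning at position -124 from the start. Among the 7 member windows 1 has a GATA site, and such sites occur in 29.8% of all 32851 windows. The Cd36 window holds 1 AGGTCA on the opposite strand, at position -228, and no other member window does. AGGTCA occurs in 16.3% of all windows. The windows of Slc27a1 and Fabp3 hold no match. The direct repeat, found in 0.0396% of windows, is in none of the 7 windows of the 4 members with a window in the RefSeq table (Cd36, Slc27a1, Vldlr and Fabp3). These letter matches are descriptions and not binding sites.

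Vldlr, the receptor that binds triglyceride-rich lipoproteins beside lipoprotein lipase, was represented by 6 probe sets that span a wide range of signal. The probe set with the largest difference (1438258_at) read 9.45, 8.74 and 9.06 in hearts aMHC_Cre 1 to 3 and 10.41, 10.50 and 10.37 in hearts no_Cre 1 to 3. The next (1435893_at) read 9.74, 8.85 and 9.11 with Cre and 10.43, 10.35 and 10.67 without Cre. In both, every heart with Cre was lower than every heart without it, and aMHC_Cre 1 was the highest of its group. The differences were -1.35 ± 0.17 (SE, n = 3 per group, limma adjusted p 0.0030) and -1.25 ± 0.21 (adjusted p 0.011). The brightest probe set (1434465_x_at), which stands for the gene in the counts by gene, read 11.52, 10.83 and 11.005 with Cre and 12.01, 11.72 and 11.93 without Cre. It gave the smallest difference of the 6, -0.77 ± 0.18 (adjusted p 0.044), and Affymetrix uses the ending x for sets with probes that resemble other sequences. The dimmest (1451156_s_at) read 6.57, 5.86 and 6.21 with Cre against 7.36, 7.12 and 7.35 without Cre, a difference of -1.07 ± 0.18 (adjusted p 0.011). For 1417900_a_at, means were 9.77 ± 0.32 with Cre and 10.65 ± 0.06 without Cre (SD, n = 3), and for 1442169_at 8.18 ± 0.25 and 9.04 ± 0.13 in the same groups, with differences of -0.88 and -0.85. The groups did not overlap at any of these 6 probe sets. Over all members this held at 15 of 23 tested probe sets, all lower with Cre, against 12.1% of all tested probe sets downward. In whole apex RNA, fewer cells of a type and less RNA per cell cannot be told apart, which holds for every difference given here. The call of 1438258_at and of 1451156_s_at held whichever heart was left out (limma adjusted p up to 0.014 and 0.041). Without aMHC_Cre 2, which read lowest of its group at all 6, the calls of 1435893_at (adjusted p 0.050), 1442169_at (0.054) and 1417900_a_at (0.075) were lost, the last also without aMHC_Cre 3 (0.052). That of 1434465_x_at was lost in 5 of 6 such fits (0.063 to 0.17) and kept without aMHC_Cre 1 (0.013).

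**Figure D1:**
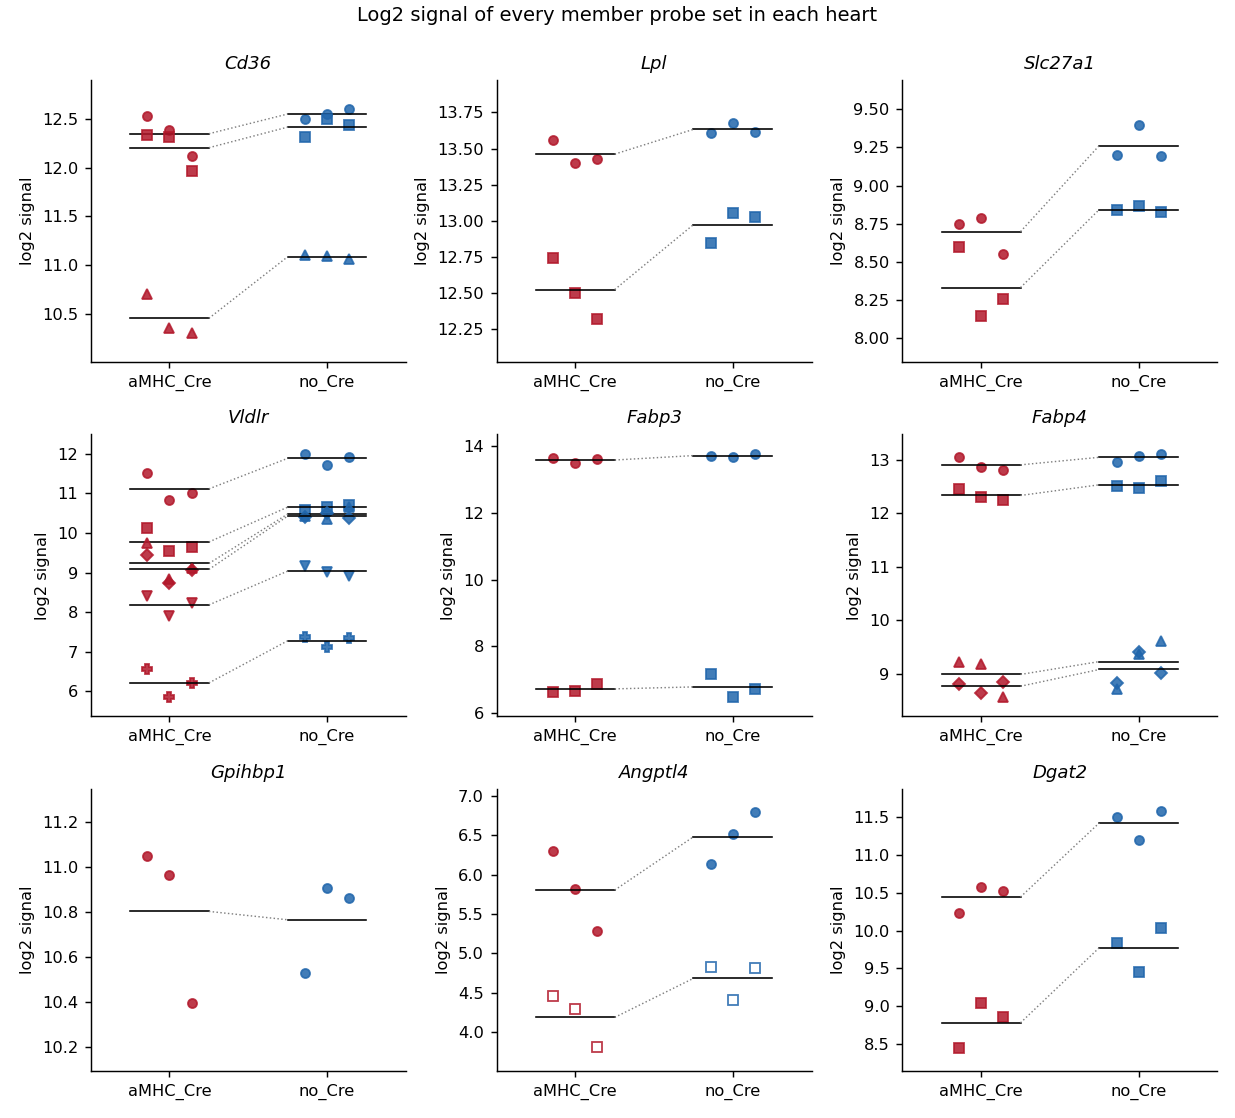
Log2 signal (vertical axis) of all 24 probe sets of the 9 genes, 1 panel per gene, in the 3 aMHC_Cre hearts (red, left) and the 3 no_Cre hearts (blue, right), each set in replicate order. Each symbol shape is 1 probe set, black lines are group means joined by dotted lines, open symbols did not pass the filter on dim signals, and the vertical scales differ. All 6 Vldlr and both Dgat2 probe sets lie lower with Cre in every heart, while the groups of Gpihbp1 overlap. In total 15 of 23 tested member probe sets lie lower without overlap, where 12.1% of all tested probe sets do.

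Around the lipase, 0 of the 4 tested probe sets of Lpl, Gpihbp1 and Angptl4 passed the test. Of all tested probe sets, 5.23% passed, so a count of 0 of 4 says little about these genes. Lpl itself was among the brightest transcripts of the array, at 13.56, 13.40 and 13.43 with Cre and 13.61, 13.68 and 13.61 without Cre for the brighter probe set. The other read 12.74, 12.50 and 12.32 with Cre and 12.85, 13.05 and 13.02 without Cre. Neither pair of groups overlapped, but the differences of -0.17 ± 0.11 and -0.45 ± 0.14 (SE) did not pass (limma adjusted p 0.49 and 0.12). The first lies close to the array maxima of 13.97 to 14.00. The second passed with trend and robust variance settings (limma adjusted p 0.020) and with 64 added to the unlogged signal (0.040), but in no other alternative run.

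Gpihbp1, the capillary protein that binds the lipase, read 11.05, 10.97 and 10.40 with Cre and 10.53, 10.90 and 10.86 without Cre. The groups overlapped widely, since aMHC_Cre 3 and no_Cre 1 were each low in their group, and the difference was 0.04 with a 95% interval of -0.39 to 0.46. It lay at 0.24 without aMHC_Cre 3 and between -0.08 and -0.04 without aMHC_Cre 1, aMHC_Cre 2 or no_Cre 1. Angptl4, the inhibitor of the lipase and a target of the PPAR receptors, was much dimmer. Its brighter probe set read 6.30, 5.82 and 5.29 with Cre and 6.14, 6.51 and 6.79 without Cre, with aMHC_Cre 1 inside the range of the other group. The difference of -0.68 ± 0.25 (SE) did not pass (limma adjusted p 0.20). It moved to -0.42 without aMHC_Cre 3, to -0.35 with 64 added to the unlogged signal and to -0.93 without aMHC_Cre 1. The last did not pass either (adjusted p 0.080). Its other probe set, at 3.81 to 4.46 with Cre and 4.41 to 4.83 without Cre, was below the filter and differed by -0.50 ± 0.22 (SE) in the fit of all probe sets (adjusted p 0.46).

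Of the uptake proteins, Slc27a1, also known as FATP1, fell. Its brighter probe set (1435658_at) read 8.75, 8.79 and 8.55 with Cre and 9.20, 9.39 and 9.20 without Cre. The other (1422811_at) read 8.59, 8.14 and 8.26 with Cre and 8.84, 8.86 and 8.83 without Cre. All hearts with Cre were below all hearts without it at both. The differences were close, at -0.56 ± 0.12 (SE, limma adjusted p 0.033) and -0.51 ± 0.14, of which the second did not pass (0.073). Over 15 alternative runs the second passed in 7, with limma adjusted p of 0.029 to 0.25. The first lost its call in each of the 6 fits without 1 heart (limma adjusted p 0.063 to 0.12), while its difference stayed between -0.61 and -0.49.

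Cd36, the main fatty acid translocase of muscle and of capillary endothelium, differed by unequal amounts at its 3 probe sets. The least bright (1450884_at) read 10.70, 10.35 and 10.31 with Cre and 11.11, 11.09 and 11.06 without Cre, and fell by 0.63 ± 0.13 (SE, limma adjusted p 0.029). The brighter ones read 12.12 to 12.53 and 11.96 to 12.33 with Cre, against 12.49 to 12.60 and 12.31 to 12.50 without Cre. They overlapped between groups and differed by -0.20 ± 0.13 and -0.21 ± 0.14 (adjusted p 0.50 and 0.49). The part of the transcript that each measures is not known here. Its call was lost without any single heart except aMHC_Cre 1 (adjusted p 0.068 to 0.13), and the brightest Cd36 probe set moved to -0.09 without aMHC_Cre 3.

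The fatty acid binding proteins gave no call. Fabp3, the heart form, read 13.63, 13.49 and 13.62 with Cre and 13.70, 13.68 and 13.77 without Cre at its bright probe set, close to the array maxima. Its difference of -0.13 had a 95% interval of -0.39 to 0.12 (limma adjusted p 0.61), although the groups did not overlap. Its dim probe set read 6.64, 6.67 and 6.87 with Cre and 7.16, 6.48 and 6.71 without Cre, overlapped, and differed by -0.06 (adjusted p 0.91), or 0.13 without no_Cre 1. Fabp4, the form of fat cells and capillary endothelium, read 13.05, 12.87 and 12.81 with Cre and 12.96, 13.07 and 13.12 without Cre at its brightest probe set, and the groups overlapped. Its 4 probe sets differed by -0.31 to -0.14, with adjusted p of 0.37 to 0.70. Single hearts moved 3 of these values: 1424155_at differed by -0.24, but by -0.03 without aMHC_Cre 3, -0.05 without no_Cre 3 and -0.50 without no_Cre 1. The difference of 1425809_at went to -0.15 without no_Cre 2, and that of the brightest to -0.09 without aMHC_Cre 3.

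Dgat2, which catalyses the last step of triglyceride synthesis, fell at both probe sets. The brighter one (1422678_at) read 10.23, 10.58 and 10.53 with Cre and 11.51, 11.19 and 11.58 without Cre. The dimmer one (1422677_at) read 8.44, 9.04 and 8.86 with Cre and 9.83, 9.46 and 10.04 without Cre. In both, aMHC_Cre 1 was the lowest heart of all and no_Cre 2 the lowest without Cre. The differences were -0.98 ± 0.15 (SE, limma adjusted p 0.0067) and -0.996 ± 0.19 (0.020). By difference of the brightest probe set, Dgat2 ranked 71 from the lowest among 13062 tested genes, Vldlr 134 and Slc27a1 325. With any 1 heart removed, 1422678_at still passed (limma adjusted p 0.0074 to 0.029), whereas 1422677_at did not pass without aMHC_Cre 1, no_Cre 1 or no_Cre 3 (0.059 to 0.061).

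**Figure D2:**
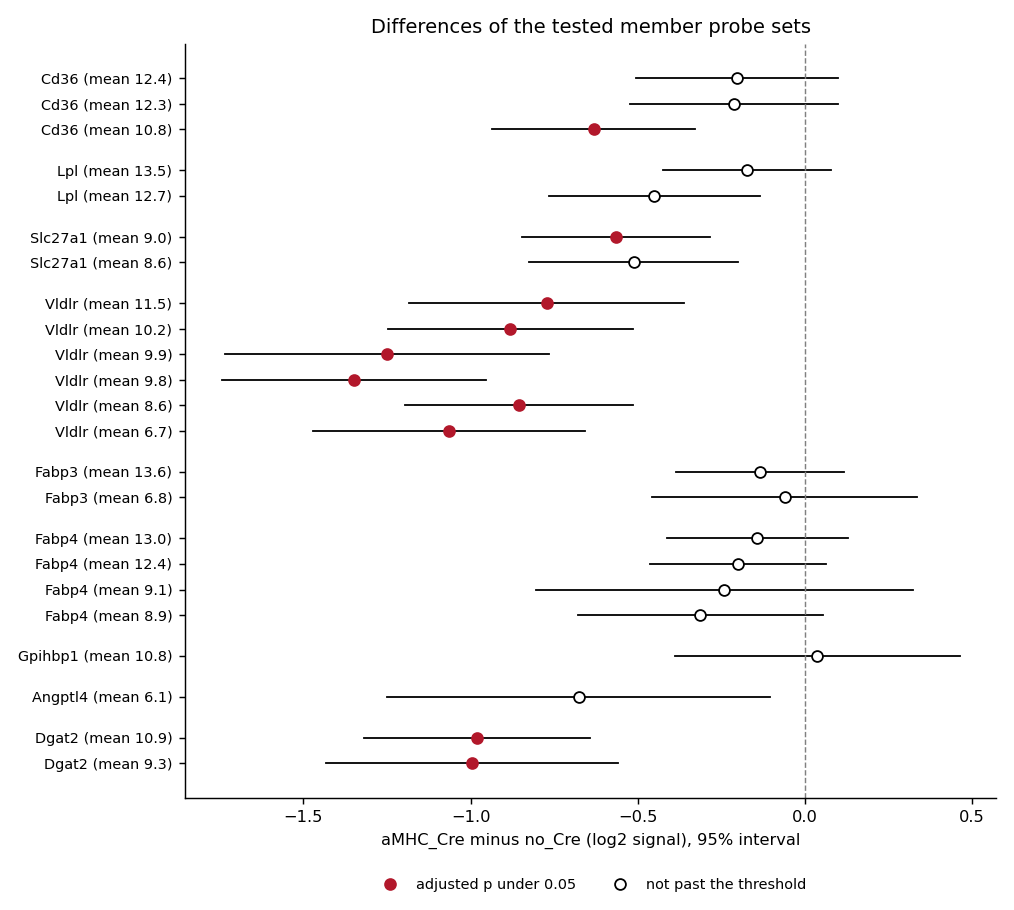
Difference in log2 signal, aMHC_Cre minus no_Cre (horizontal axis), with its 95% interval from limma, for the 23 tested probe sets, grouped by gene and labelled with the mean of the 6 hearts. Red points passed (adjusted p under 0.05) and open points did not. The 6 Vldlr and 2 Dgat2 probe sets and 1 each of Slc27a1 and Cd36 passed, and only the Gpihbp1 point lies above 0.

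The hearts with Cre did not fall in one order for all members. At the 6 Vldlr probe sets aMHC_Cre 1 was the highest and aMHC_Cre 2 the lowest of its group, by up to 0.51 above and 0.38 below the group mean. At both Dgat2 probe sets aMHC_Cre 1 was instead the lowest and aMHC_Cre 2 the highest. At all 3 Cd36, both Angptl4 and the Gpihbp1 probe sets, and at 3 of 4 for Fabp4, aMHC_Cre 3 was the lowest. Probe sets of a gene share the RNA of a heart, so they repeat a heart's value and are not replicates. For Cd36, Fabp4 and Gpihbp1, which endothelium expresses, the mean of 20 endothelial markers was 9.35, 9.28 and 9.19 in aMHC_Cre 1 to 3 and 8.98, 9.17 and 9.26 in no_Cre 1 to 3, lowest in aMHC_Cre 3 and no_Cre 1 within their groups. Their part in these values was not tested.

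**Figure D3:**
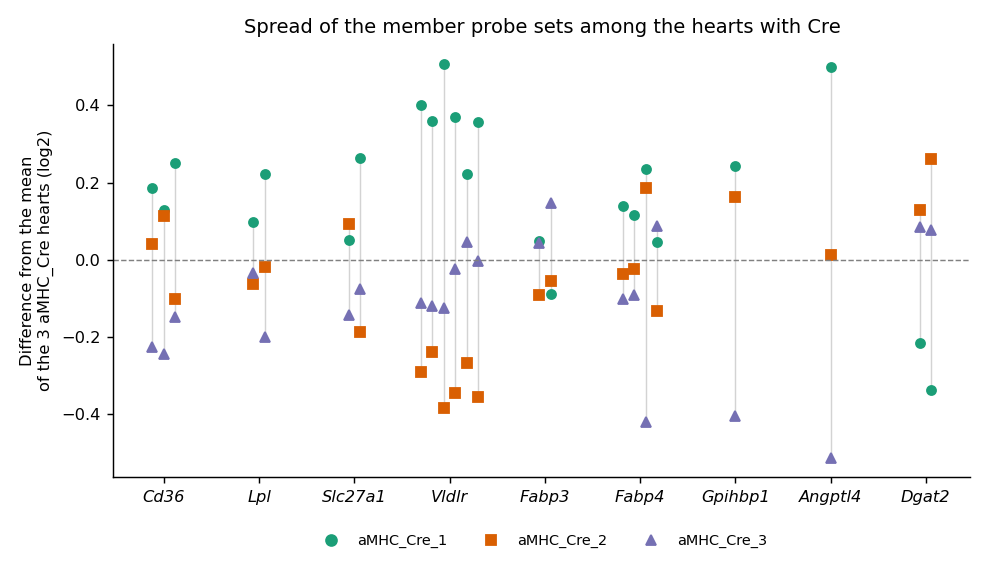
Difference of each aMHC_Cre heart from the mean of the 3 (vertical axis, log2 signal) for each tested probe set, grouped by gene along the horizontal axis. Circles are aMHC_Cre 1, squares aMHC_Cre 2 and triangles aMHC_Cre 3. At the 6 Vldlr probe sets the circles are the highest and the squares the lowest, while at Dgat2 the circles are the lowest.

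Of all tested genes, 6.24% passed, 4.2% as higher and 2.04% as lower with Cre. Of 20 endothelial markers tested, 1 passed: Vwf, the von Willebrand factor, rose by 1.12 ± 0.17 (SE, limma adjusted p 0.0066). The other 19 differed by -0.45 to 0.49 without passing, 5 of the 20 lay below 0, and the median difference was 0.12. Their summed signal was 13.85 to 14.06 with Cre and 13.75 to 14.03 without Cre on the log2 scale. Of 14 cardiomyocyte markers 0 passed, with 0 at an unadjusted p under 0.05, a median of -0.02 and a summed signal of 17.17 to 17.23 with Cre and 17.18 to 17.25 without Cre. These markers averaged 12.46 to 13.85 with Cre and 12.34 to 13.88 without Cre, the brightest of them close to the array maxima, and how far a change would show there was not tested. The lowest p was that of Mybpc3, cardiac myosin binding protein C, at 0.27 ± 0.12 (adjusted p 0.29). Fibroblast markers were higher in 4 of 9 cases and lower in 0, with summed signals of 13.98 to 14.10 with Cre and 13.41 to 13.66 without Cre, and Col1a1, a fibrillar collagen chain, rose by 1.41 ± 0.21. Next were Lum, the matrix proteoglycan lumican, which rose by 0.74 ± 0.12, and Mfap5, a microfibril protein, by 1.02 ± 0.18 (0.89 and adjusted p 0.063 without aMHC_Cre 2). Of 9 tested macrophage markers 0 passed, with 0 at an unadjusted p under 0.05 and summed signals of 12.14 to 12.29 with Cre and 12.01 to 12.30 without Cre. Cd68 had the lowest p, at 0.22 ± 0.11 (adjusted p 0.36). The part of these cell types in the members' differences was not tested.

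Among other genes of lipid uptake, lipoprotein handling and fatty acid activation, 3 of 23 tested were higher with Cre and 1 lower, with a median difference of 0.21, where 4.2% of all tested genes were higher and the median was -0.01. Sdc4, a heparan sulfate proteoglycan of the cell surface, read 7.59, 8.23 and 8.12 with Cre and 6.98, 6.85 and 6.64 without Cre, and rose by 1.15 ± 0.18 (SE, limma adjusted p 0.0075). Lrp1, a large endocytic receptor for lipoprotein remnants and many other ligands, rose by 0.58 ± 0.13 (0.032), and Apoe, the apolipoprotein that such receptors bind, by 0.50 ± 0.11 (0.039). These 3 rose in the hearts in which fibroblast markers were also higher, and the part of those cells was not tested. Mttp, which loads lipid onto apolipoprotein B, read 6.03, 6.45 and 6.55 with Cre and 7.29, 6.92 and 7.06 without Cre, and fell by 0.75 ± 0.16 (0.032), with its second probe set at -1.05. Of this list, 7 of 23 genes (30.4%) lay below 0, where 52.3% of all tested genes did. Members of both lists without a tested probe set were not analysed here. Of the 4 calls, that of Sdc4 held whichever heart was left out, that of Apoe was lost in 6 of 6 such fits (adjusted p 0.066 to 0.15), and those of Lrp1 and Mttp in 4 of 6 each (0.083 to 0.13 and 0.075 to 0.11).

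Genes of triglyceride synthesis, lipid droplets and lipolysis included 5 of 24 tested that were lower with Cre and 1 that was higher, where 2.04% of all tested genes were lower and 4.2% higher. The median difference was -0.27, against -0.01 over all tested genes, and 18 of the 24 (75%) lay below 0, against 52.3% of all tested genes. Fitm1, which buds lipid droplets from the endoplasmic reticulum in muscle, read 9.83, 9.84 and 9.81 with Cre and 10.66, 10.75 and 10.74 without Cre, and fell by 0.89 ± 0.11 (SE, limma adjusted p 0.0021). Its relative Fitm2 fell by 0.60 ± 0.12 (0.024). Gpam, the acyltransferase of the first step of glycerolipid synthesis, read 11.07, 10.71 and 10.88 with Cre and 11.78, 11.59 and 11.77 without Cre, and fell by 0.83 ± 0.13 (0.0083), and by 1.00 at its other probe set. Pnpla2, the adipose triglyceride lipase, fell by 0.61 ± 0.13 (0.029) and Plin2, a coat protein of droplets, by 0.50 ± 0.12 (0.044). Cideb, a droplet protein best known in liver, rose by 0.99 ± 0.18 (0.016). Dgat1, the other enzyme of the last step, read 7.61 on average with Cre and 7.56 without Cre and differed by 0.05 ± 0.15 (adjusted p 0.91), so Dgat2 fell and Dgat1 did not pass, and the difference between them was not tested. The calls of Fitm1 and Gpam held whichever heart was left out. Those of Pnpla2 and Plin2 were lost in all 6 such fits (adjusted p 0.054 to 0.17), that of Fitm2 in 5 (0.053 to 0.11, kept without no_Cre 3 at 0.032), and that of Cideb without aMHC_Cre 2 (0.076).

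**Figure D4:**
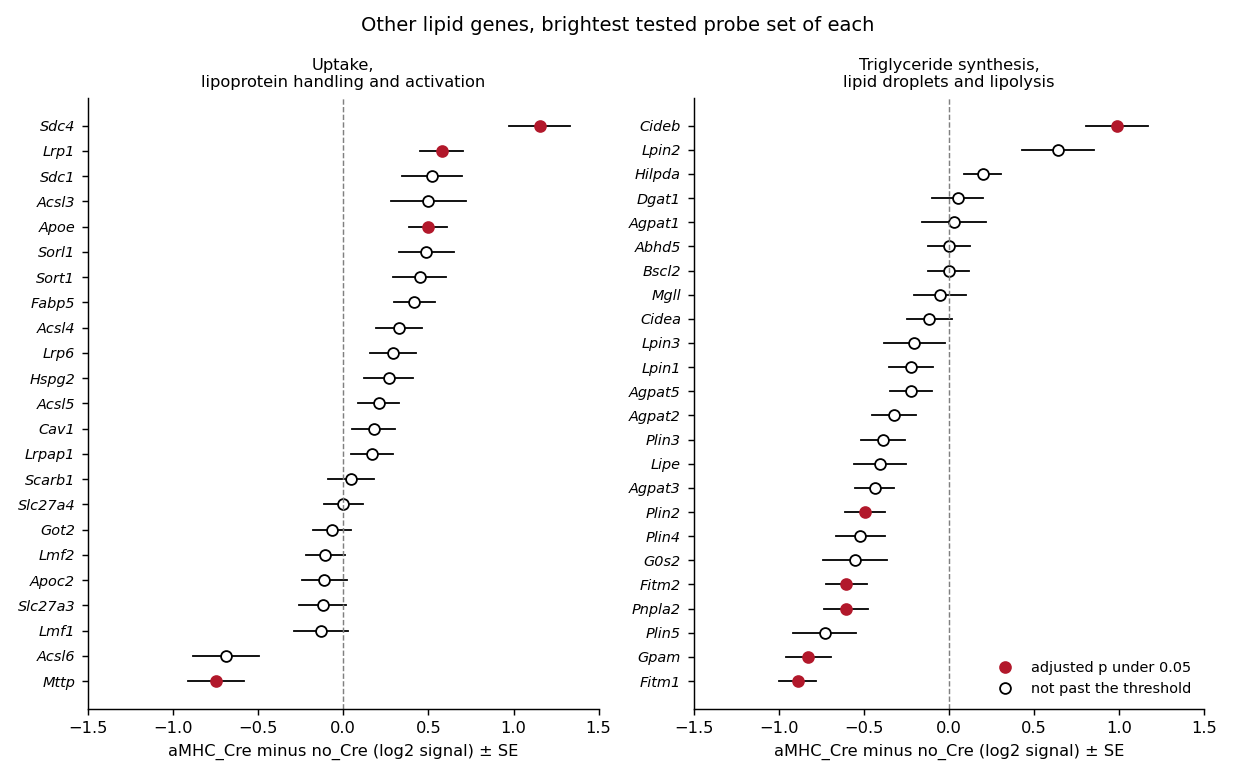
Difference in log2 signal, aMHC_Cre minus no_Cre (horizontal axis), ± SE, for the brightest tested probe set of 23 genes of uptake, lipoprotein handling and activation (left) and 24 genes of triglyceride synthesis, droplets and lipolysis (right), each ordered by difference. Red points passed (adjusted p under 0.05). On the left 3 higher genes and 1 lower passed, on the right 5 lower and 1 higher.

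Genes with profiles most like a member across the 6 hearts were sought for the 3 members called through their brightest probe set. The group difference enters each Pearson r, so these values describe the hearts and were not tested. High values were common: 84 other genes had an r over 0.95 with Dgat2, 83 with Slc27a1 and 232 with Vldlr. Closest to Dgat2 were Bmp8b at 0.996 and Fgd6 at 0.996, with differences of -0.24 and -0.52 that did not pass (limma adjusted p 0.30 and 0.052). Closest to Slc27a1 were Map7, at 0.994 and a difference of -0.58 (adjusted p 0.025), and the lipase gene Pnpla2, at 0.994. Closest to Vldlr were Actr6 at 0.998, with a difference of -0.38 (adjusted p 0.15), and Plin5, a droplet coat protein of oxidative muscle, at 0.994. Plin5 read 10.20, 9.55 and 9.63 with Cre and 10.72, 10.33 and 10.53 without Cre, with the same order of hearts with Cre as Vldlr, and differed by -0.73 ± 0.19 without passing (adjusted p 0.059).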

How the data were processed

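The authors deposited log2 signals made with PLIER, per the submitters' processing notes. Settings and between-array scaling are not stated there, and base 2 was inferred from the values. Of 45101 probe sets, 64 controls and the 40% of the rest with the lowest mean (18015, under 5.16) were left out, leaving 27022. Array medians differed by at most 0.1, so no normalization was added. The 2 groups went into limma 3.58.1 under R 4.3.3 (eBayes on lmFit, no covariates, two-sided), with Benjamini-Hochberg adjustment over all tested probe sets and a threshold of 0.05. The number of arrays limits the precision.

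Names came from the platform annotation (34945 probe sets with 1 symbol, 932 with several, 9160 with none). For all 24 member probe sets the Entrez number gave the same symbol in RefSeq. The brightest probe set stands for a gene. Members and lists were chosen with earlier results of these data known, so their counts are not independent support. All members and every list gene past the threshold are named, or the 2 with the lowest p where fewer than 3 passed, and up to 3 per marker list, or 1 as a value. Dgat1, Plin5 as a droplet gene and the adipocyte markers other than Thrsp were named after their values were seen. On simulated data for this comparison (27022 probe sets, 200 changed, normal noise), 96% of changes of 2-fold and 100% of 4-fold were recovered. Of 212 calls, 16 were false. Changes under 2-fold were not simulated, so the recovery of differences such as those of Slc27a1, Cd36, Lpl and Angptl4 is not known. Alternatives were other normalizations, filters, variance settings, offsets, array weights, a replicate block, other probe sets for a gene, and leaving out each heart.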

Additional observations from a re-analysis of the deposited data

How the results depend on the processing

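The direction of the member calls held in every alternative run, but the number of calls depended on the filter and on single hearts. With 1 heart left out the direction could not change, since the groups did not overlap at any called member probe set. Filters, variance settings and the replicate block leave a difference as it is. Of members without a call, Gpihbp1 and the dim Fabp3 probe set changed sign when 1 heart was left out. Without the filter, over 45037 probe sets, limma called 0 member probe sets (12 of 24 at an unadjusted p under 0.05), 0 member genes and 1 of the other lipid genes (Fitm1), where the main counts were 10, 3 and 10, and 275 instead of 1412 probe sets over the array. The adjusted p without the filter was 0.092 for Dgat2, 0.074 for the most changed Vldlr probe set and 0.15 for Slc27a1. Leaving out 1 heart gave 4 to 9 member probe sets (4 without aMHC_Cre 2, 6 without aMHC_Cre 3, no_Cre 1 or no_Cre 3), 1 to 2 member genes, 3 to 7 other lipid genes (3 without aMHC_Cre 2, 4 without no_Cre 1, 5 without aMHC_Cre 3, 6 without no_Cre 2) and 600 to 1075 probe sets over the array. Deviations of same-numbered hearts from their group means correlated at -0.06, 0.21 and -0.19, and not every heart correlated best with its own number. The highest value was 0.27, for aMHC_Cre 1 with no_Cre 3. Since deviations are taken from each group's own mean, these values depend on each other, so whether hearts were paired cannot be told. With the replicate block, 6 member probe sets, 2 member genes (Vldlr and Dgat2), 5 other lipid genes and 909 probe sets over the array were called. The other planned settings left the member counts at 10 to 12 probe sets and 3 to 4 genes. Adding 64 to the unlogged signal shrank differences of dim probe sets, to -0.35 for Angptl4, -0.66 for the dimmest Vldlr probe set, -0.46 for Mttp and 0.55 for Cideb, of which the last 3 still passed. Angptl4 has no value with the 60% filter. What low signals can show is limited, since values below 0 occur on every array.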

Other observations

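Of 12 listed markers of fat cells, 9 had a probe set and 4 of these passed the filter on dim signals. Of the 4, 0 passed the test (limma, 1 at an unadjusted p under 0.05), where 6.24% of all tested genes did. The defining marker Adipoq, which did not pass the filter, read 5.49, 4.37 and 5.56 in aMHC_Cre 1 to 3 and 3.57, 4.35 and 4.56 in no_Cre 1 to 3. The mean log2 signal of the 9 was 5.82, 5.33 and 5.79 with Cre and 5.05, 5.46 and 5.13 without Cre, and the groups overlapped. Their summed signal was 9.85 to 11.44 with Cre and 9.12 to 9.47 without Cre on the log2 scale, and Thrsp was its brightest gene. Of the other 7, of which Retn, Car3 and Lep passed the filter, the differences were for Retn 0.00, Car3 0.91, Lep -0.17, Tmem45b 0.59, Pck1 -0.27, Cidec -0.11 and Ucp1 -0.22. Thrsp, a protein linked to lipogenesis, read 11.16, 10.53 and 8.42 with Cre and 7.79, 7.50 and 8.25 without Cre. Every heart with Cre was above every heart without it, and aMHC_Cre 3 only just. The difference of 2.19 ± 0.58 (SE) did not pass (limma adjusted p 0.066).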
